A study of Brassica rapa subsp. pekinensis with 6 samples.

Results

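The genes described here are the carpel MADS-box genes of Chinese cabbage flower buds: *AGAMOUS* (*AG*, Bra013364), 3 copies of *SHATTERPROOF1* (*SHP1*, Bra007419, Bra003356 and Bra014552) and *SHATTERPROOF2* (*SHP2*, Bra004716). They were picked by identifier, with no threshold on their values, but earlier results of these data were known at the time. They are 5 of the 35616 genes that had a read in any library. All 5 were listed in each of the 6 libraries. The deposited lists hold identifiers only, and 0 of the 5 matched the RefSeq gene table at hand, so the names were not checked against a sequence.

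Flower buds of the doubled haploid wild-type line ‘FT’ (libraries F1, F2 and F4) were compared with those of the female-sterile mutant *fsm* (M1, M2 and M3), all collected at the full-bloom stage. The mutant was raised from ‘FT’ by EMS treatment of isolated microspores and is inherited as a single recessive nuclear gene that had not been mapped. It has aborted pistils, abnormal ovules and smaller floral organs. The paper found little pollen in *fsm*, but this pollen was viable. Crosses with *fsm* as the pollen parent set seed, and the paper judged its stamens to be of normal fertility. A biological replicate was a mixture of the buds of 5 plants, with 3 inflorescences taken from each. The methods also speak of pooling RNA across replicates before the libraries were made, so p-values may measure technical spread only.

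MADS-box proteins are transcription factors that bind DNA as dimers and larger complexes and set the identity of floral organs. In *Arabidopsis thaliana*, *AG* is the C-class organ identity gene, active in both stamens and carpels and needed to end the growth of the floral meristem. *SHP1* and *SHP2* are its close relatives, act in carpels and ovules, and redundantly pattern the valve margins along which the fruit opens. Together with *AG*, they take part in ovule identity. *Brassica rapa* often carries several copies of an *Arabidopsis* gene, a trace of an ancient multiplication of its genome.

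The 4 *SHP* genes had 3.08 to 6.95 times as much RNA in *fsm* buds as in ‘FT’ buds, whereas the level of *AG* in *fsm* was 0.889 times that in ‘FT’. Counts were scaled by edgeR's TMM factors and compared by its quasi-likelihood test, and a gene was called at a Benjamini-Hochberg adjusted p of at most 0.001 over all genes and a log2 fold change of at least 1 in either direction. All 4 *SHP* genes were called with higher expression in *fsm*, and *AG* was not called. Over all genes tested, 36.7% were called, 18.7% as higher and 18.0% as lower in *fsm*, so that large differences between the lines were common. None of the 5 reached an absolute log2 fold change of 4, the stricter limit that the study set for its own list, which 5.26% of all genes passed. The median log2 fold change was 2.19 over the 4 *SHP* genes and -0.02 over all genes. In bulk buds, a changed share of cells of a type and a changed amount of RNA per cell cannot be told apart.

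**Figure D1:**
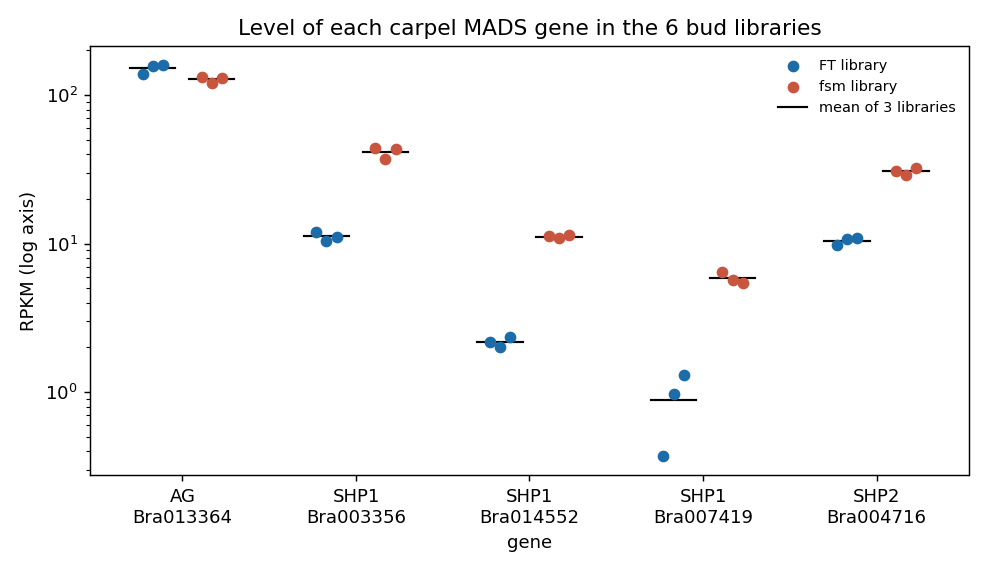
RPKM of the 5 genes on a log axis, with 1 point per library (blue, ‘FT’; red, *fsm*) and a line at the mean of 3 libraries. The ‘FT’ and *fsm* points of each *SHP* gene are far apart. Those of *AG* lie closer, at 139 to 158 RPKM in ‘FT’ and 121 to 132 RPKM in *fsm*, without overlap on this scale.

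*AG* was the most abundant of the 5 genes in either line. Values by library are given here in the order F1, F2, F4 for ‘FT’ and M1, M2, M3 for *fsm*. The ‘FT’ libraries held 2683, 2970 and 3005 *AG* reads, and those of *fsm* held 2939, 2611 and 2802. In RPKM, the reads per kilobase of coding length and per 1000000 counted reads, this was 139, 156 and 158 RPKM in ‘FT’ and 132, 121 and 131 RPKM in *fsm*. Every *fsm* library was thus below every ‘FT’ library in RPKM. On the TMM scale, the libraries of the lines overlapped narrowly, since M1 (103.3 CPM) was above F1 (103.1 CPM). The log2 fold change was -0.17 (standard error, SE, 0.07, approximate 95% interval -0.30 to -0.04), and it did not pass the threshold (adjusted p = 0.0197, edgeR). In both lines *AG* was among the more highly expressed genes of the bud, at the 96.8th percentile of mean RPKM in ‘FT’ and the 96.1st in *fsm*. The interval leaves room for a small decrease and none for a change of the size seen in the *SHP* genes.

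Among the *SHP1* copies, Bra003356 was expressed most strongly. Its reads numbered 249, 216 and 229 in ‘FT’ and 1057, 871 and 997 in *fsm*. The corresponding levels were 11.9, 10.5 and 11.1 RPKM in ‘FT’ and 43.8, 37.2 and 43.1 RPKM in *fsm*. Each *fsm* library lay more than 3 times above each ‘FT’ library. The log2 fold change was 1.96 (SE 0.09, edgeR adjusted p = 9.1e-23). Its rank by mean RPKM moved from the 59.1st percentile of expressed genes in ‘FT’ to the 84.7th in *fsm*.

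The copy Bra014552 was less abundant than Bra003356 in both lines and had a larger fold change. It collected 41, 38 and 44 reads in ‘FT’ and 245, 231 and 239 in *fsm*. The libraries of a line were close to each other, at 2.18 ± 0.165 RPKM in ‘FT’ and 11.1 ± 0.267 RPKM in *fsm* (mean ± SD of 3 libraries each). The log2 fold change was 2.42 (SE 0.16, edgeR adjusted p = 1.1e-17), a 5.35-fold difference.

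The copy Bra007419 was the least abundant of the 5 genes and had the largest fold change. Only 7, 18 and 24 reads were counted in ‘FT’, against 140, 119 and 113 in *fsm*. F1 stood below the other ‘FT’ libraries: the exact 95% counting interval of its 7 reads, 2.81 to 14.4, does not reach that of the 24 reads in F4, 15.4 to 35.7, and such intervals cover counting error only. The levels were 0.882 ± 0.470 RPKM in ‘FT’ and 5.85 ± 0.535 RPKM in *fsm* (mean ± SD of 3 libraries each). On the log2 scale it was 2.80 higher in *fsm* (SE 0.25, edgeR adjusted p = 2.3e-13), with values from 2.43 to 3.19 in the fits that left out 1 library each. Even the lowest *fsm* library, M3, had more than 4 times the RPKM of the highest ‘FT’ library, F4.

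For *SHP2*, 182, 198 and 201 reads were counted in ‘FT’ and 664, 607 and 671 in *fsm*. This gave 9.75, 10.7 and 10.9 RPKM in ‘FT’ and 30.8, 29.0 and 32.5 RPKM in *fsm*. The lines were widely separated and the libraries within a line were close. The log2 fold change was 1.62 (SE 0.10, edgeR adjusted p = 6.4e-19), the smallest of the 4 *SHP* genes. *SHP2* moved from the 57.5th percentile of expressed genes in ‘FT’ to the 79.5th in *fsm*.

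**Figure D2:**
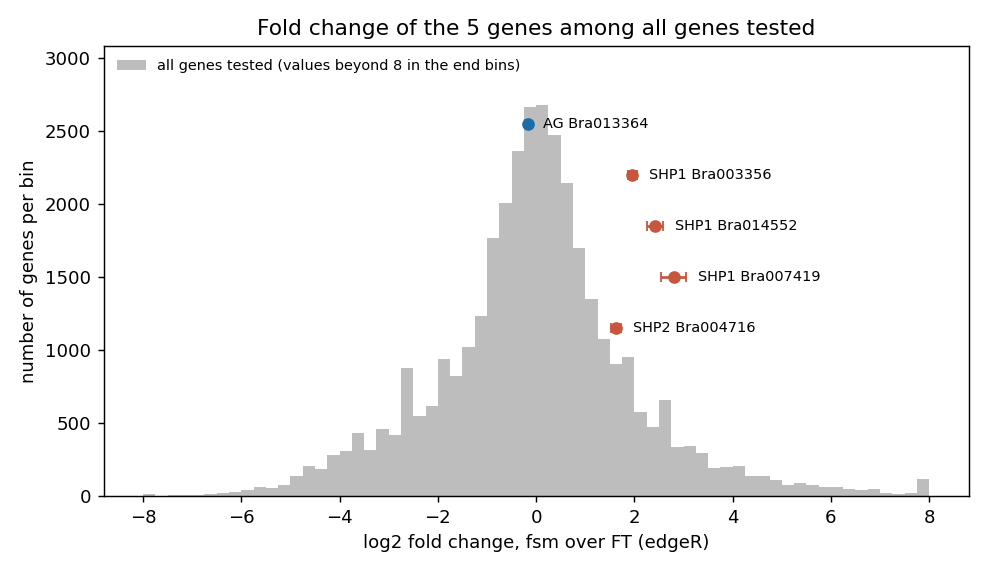
Log2 fold change of *fsm* over ‘FT’ for the 5 genes (points, with the standard error as a horizontal bar, at arbitrary heights) over the histogram of all 35616 genes tested in bins of 0.25. *AG* lies at -0.17, near the centre of the histogram, and the 4 *SHP* genes lie between 1.62 and 2.80.

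The position of these values among all genes is given as a description. The log2 fold changes of *SHP2*, Bra003356, Bra014552 and Bra007419 exceeded those of 83.8%, 87.5%, 90.3% and 92.7% of the genes tested, respectively, and that of *AG* exceeded 45.2%. The TMM-scaled libraries of the lines did not overlap for the 4 *SHP* genes. This held for 75.0% of all genes tested, in 37.5% with the *fsm* libraries above, so that a lack of overlap alone was the usual case in these data.

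The order of the levels was *AG*, Bra003356, *SHP2*, Bra014552 and Bra007419 in both lines, by mean RPKM. In ‘FT’, Bra003356 (11.2 ± 0.724 RPKM, SD, n = 3) and *SHP2* (10.5 ± 0.640 RPKM) did not differ beyond their spread, and Bra003356 was the higher in 2 of the 3 libraries. In *fsm*, the same neighbours were apart in all 3 libraries, at 41.4 ± 3.64 and 30.7 ± 1.75 RPKM. All other neighbours in the order were apart in both lines. *AG* stood 13.5 times above the next gene in ‘FT’ and 3.09 times above it in *fsm*.

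Ratios between these genes within a library do not depend on how libraries are scaled. The log2 ratio of *AG* to *SHP2* was 3.84, 3.86 and 3.86 in ‘FT’ and 2.10, 2.06 and 2.02 in *fsm*. The libraries of each line were thus almost identical in this ratio, and the difference, *fsm* minus ‘FT’, was -1.79 (SE 0.03), a 3.46-fold shift. Against Bra003356, Bra014552 and Bra007419, the ratio of *AG* was lower by 4.36-, 6.03- and 8.85-fold in *fsm*, respectively, with every *fsm* library below every ‘FT’ library. In each of these 4 comparisons the two-sided exact permutation test gave p = 0.1 (adjusted p = 0.111 over the 10 pairs of genes compared), and 0.1 is the smallest p that 3 libraries against 3 allow.

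**Figure D3:**
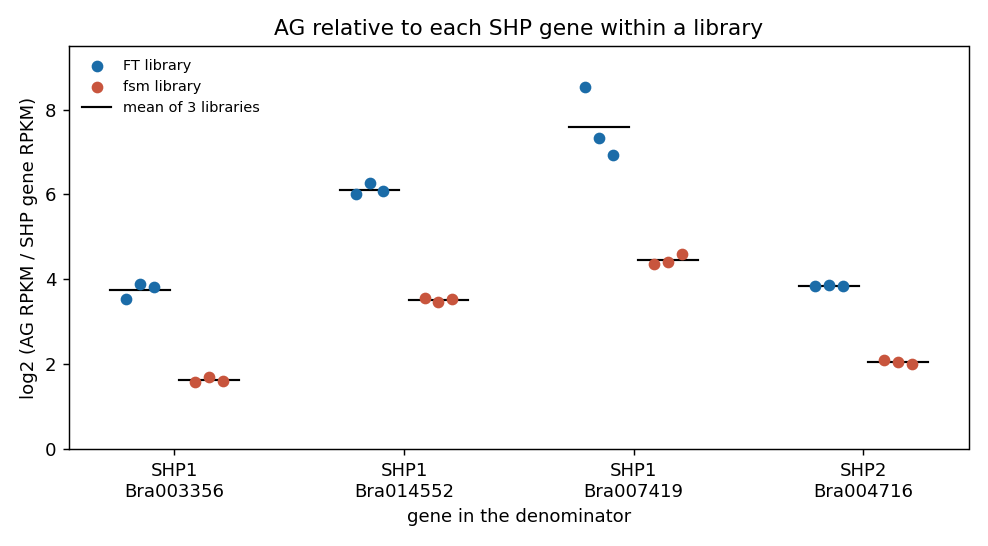
Log2 ratio of the RPKM of *AG* to that of each *SHP* gene within a library (blue, ‘FT’; red, *fsm*; lines, means of 3 libraries). Each *fsm* library lies below each ‘FT’ library for all 4 genes, and F1 (8.54) stands above F2 and F4 for Bra007419.

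The *SHP* genes also differed from each other in the size of their increase. Bra014552 gained on *SHP2* by 0.80 on the log2 scale (SE 0.08) and on Bra003356 by 0.47 (SE 0.09). Bra003356 gained on *SHP2* by 0.33 (SE 0.11). In these 3 pairs the ratios of the lines did not overlap (exact permutation test, p = 0.1, adjusted p = 0.111). The gain of Bra007419 on Bra014552 was 0.55 (SE 0.53), with overlapping libraries (exact permutation test, p = 0.5, adjusted p = 0.5), and without F1 it was 0.03, while without F4 it was 0.87. The gains of Bra007419 on Bra003356 (1.02, SE 0.59) and on *SHP2* (1.35, SE 0.50) had libraries that were apart (exact permutation test, p = 0.1, adjusted p = 0.111), but they also leaned on F1, without which they were 0.44 and 0.87.

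Summed over the 3 copies, *SHP1* RNA came to 14.5, 13.5 and 14.8 RPKM in ‘FT’ and to 61.4, 53.7 and 60.0 RPKM in *fsm*. The lines were apart, with a ratio of means of 4.10 (exact permutation test, p = 0.1). A sum is less affected than a single copy by reads that fit more than 1 copy, and whether such reads were counted is not known. Bra003356 made up most of it in both lines, 78.5% ± 3.65 in ‘FT’ and 70.8% ± 1.40 in *fsm* (mean ± SD of 3 libraries each). Bra014552 contributed 15.3% ± 0.535 and 19.1% ± 1.02. Bra007419 contributed 6.20% ± 3.23 in ‘FT’, where F1 was lowest with 2.58%, and between 9.08% and 10.5% in the *fsm* libraries. The difference of 3.85 percentage points in the share of Bra007419 was 2.04 without F1. For each copy the shares of the lines did not overlap (exact permutation test, p = 0.1).

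Taking the 5 genes as a pool, *AG* made up 85.2%, 86.6% and 86.0% of the summed RPKM in ‘FT’ and 58.9%, 59.4% and 58.7% in *fsm*. The summed RPKM of the pool was 176 ± 11.1 in ‘FT’ and 217 ± 11.9 in *fsm* (mean ± SD of 3 libraries each). The 4 *SHP* genes together went from 24.7 ± 0.886 to 89.1 ± 5.57 RPKM. *AG* thus remained the main transcript of the pool in both lines, with a smaller share in *fsm* (exact permutation test, p = 0.1).

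Reads lay along most of the coding length of these genes. The deposited coverage of *AG* was between 99.3% and 99.9% in all 6 libraries, that of *SHP2* between 97.8% and 99.7%, and that of Bra014552 between 95.9% and 97.9%. For Bra007419 it was 62.3%, 75.1% and 95.3% in ‘FT’, in the order of the few reads, and 90.8%, 88.5% and 98.0% in *fsm*. Coverage overlapped between the lines for 4 of the 5 genes. The exception was Bra014552, with 96.3% ± 0.408 in ‘FT’ and 97.4% ± 0.412 in *fsm* (SD, n = 3, exact permutation test, p = 0.1). It also had more reads in *fsm*, 231 to 245 against 38 to 44, and the part of read number in its coverage was not tested. How often coverage separates the lines over all genes was not computed.

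Bra003356 behaved differently from the others. Its coverage was 86.5%, 85.3% and 85.3% in ‘FT’ and 86.5% in each *fsm* library, although these held about 4 times as many reads. About 111 of its 822 coding bases had no read in F1, M1, M2 or M3. Coverage below 90% was found in 8.16% to 10.3% of the genes with at least 200 reads in a library. Whether these are the same bases in each library, and why they lack reads, was not tested.

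**Figure D4:**
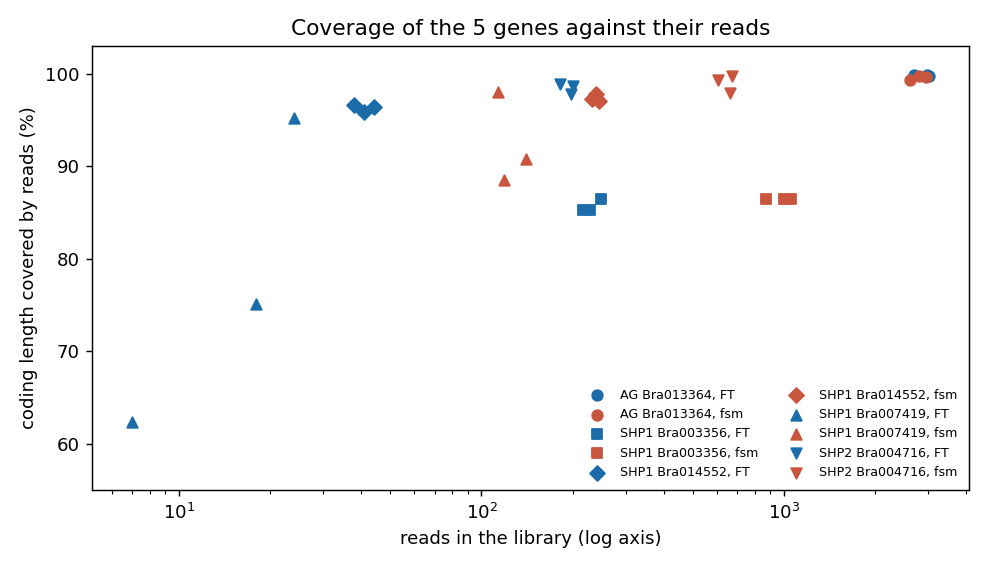
Percentage of the coding length covered by reads against the number of reads (log axis), with 1 point per gene and library (shape, gene; blue, ‘FT’; red, *fsm*). Bra003356 stays between 85.3% and 86.5% from 216 to 1057 reads, and Bra007419 reaches from 62.3% at 7 reads to 98.0% at 113 reads.

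Other pistil genes were taken from the study's text and gene descriptions. They had been listed by the study because they changed strongly in these same libraries, so their number and direction are not independent evidence. All 7 were called, 5 as higher and 2 as lower in *fsm*, beside 36.7% of all genes. *PFS2* (Bra026791), a homeodomain gene that acts in ovule patterning and represses *AG* in *Arabidopsis*, was counted at 0, 1 and 2 reads in ‘FT’ and at 13, 28 and 20 in *fsm*. *HEC1* (Bra012128), a bHLH gene of stigma and transmitting tract development, had 2, 0 and 0 reads against 57, 43 and 42. Thus both were near the limit of detection in ‘FT’ and clearly present in *fsm*. The MADS-like gene Bra003278 went the other way from the *SHP* genes, with 20, 26 and 26 reads in ‘FT’ and 2, 2 and 0 in *fsm*, a log2 fold change of -4.16 (SE 0.64, edgeR adjusted p = 1.7e-07). Of the other 4 genes, the lipocalin gene *TIL*, the gynoecium bHLH gene Bra000979 and *EDA39* rose with log2 fold changes from 5.04 to 6.93. *EDA2*, with 10, 19 and 8 reads in ‘FT’, had 0 reads in all *fsm* libraries.

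The pollen genes taken from the study moved strongly between the same libraries, in the direction opposite to the *SHP* genes. A list of 17 genes whose descriptions name pollen, polcalcin, *VGD1* or *AGP23* was taken from the study's own list of changed genes, so its direction is not independent evidence either. All 17 were called with lower expression in *fsm*, beside 18.0% of all genes. Their median log2 fold change was -4.31. Their summed level was 4572 to 4657 RPKM in ‘FT’ libraries and 190 to 219 RPKM in *fsm* libraries, and none of the 17 was at 0 in all libraries of a line. *VGD1*, a pectin methylesterase gene of the pollen tube, had 791 RPKM in ‘FT’ and 43.2 RPKM in *fsm* for its copy Bra000438. The log2 fold change of *AG*, -0.17, cannot be weighed against the median of this list, because the list held only genes past that limit. The list took at most 0.415% of the reads of any library, and its part in the differences of the *SHP* genes was not tested.

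The libraries held 25.0 to 25.4 M counted reads in ‘FT’ and 28.1 to 29.4 M in *fsm* (M, 1000000 reads), so that 3 reads, taken as the floor of detection, correspond to between 0.102 and 0.120 CPM. Across genes, which are not independent replicates, the log2(CPM + 1) values of libraries of 1 line correlated with r between 0.995 and 0.996, and those of different lines with r between 0.795 and 0.799. Libraries of a line differed by more than counting noise, so that none is a library deposited again. That does not show separate RNA samples, and each was counted as 1 sample as labelled. The sources give no sequencing or preparation batch, so that the lines cannot be told apart from any such batch.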

How the data were processed

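RNA-Seq libraries of 6 bud samples were analysed. After removal of adaptor and low-quality reads, the authors used SOAP2 to align clean reads to the *B. rapa* genome, allowing up to 5 mismatches, and deposited an unnormalized count of reads per gene. The file headers call these reads unique, but each library's sum exceeds both the unique and the mapped total stated by the study, so it is not known which reads were counted, or how reads that fit several *SHP1* copies were treated. The deposited RPKM equals the count per kilobase of listed length and 1000000 counted reads. The lengths are all multiples of 3, thus coding lengths. The deposited coverage is a score on a percent scale that slightly exceeds 100 in a few genes. Genes not listed in a library were taken as 0 reads. Use of strand in counting is not given in the sources used here.

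Counts were compared in R 4.3.3 with edgeR 4.0.16 (TMM, quasi-likelihood test, 35616 genes, 6 libraries, no covariate, no filter). The standard error is the absolute log2 fold change over the square root of F. Intervals are approximate, from that error. Single values were compared by two-sided exact permutation tests (scipy 1.17.1). Alternatives were other scalings, DESeq2 1.42.0, limma 3.58.1 on RPKM in log2 with a pseudocount of 1 or 0.1, a filter on low counts, a prior count of 2, a replicate block, and leaving out each library. The fits were tested on simulated counts beforehand.

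The genes and lists were chosen with earlier results of these data known. Named genes are the 5 members, the genes of both lists, and the 2 genes most like each member. A list of further carpel regulators was not used here, because the RefSeq table paired only 1 identifier of the files with a symbol or synonym. The sums over the *SHP* genes and over the 5 genes, and the share of *AG*, were added after the values were seen.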

Additional observations from a re-analysis of the deposited data

How the results depend on the processing

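The 4 calls of the *SHP* genes and the lack of a call for *AG* were the same under all 15 alternatives to the edgeR fit, 1 of them (the 4 libraries numbered 1 and 2 without a block) chosen after seeing the data, and none of the 5 reached a log2 fold change of 4 in any. Over these, the log2 fold change ranged from 1.47 to 1.66 for *SHP2*, from 1.80 to 2.03 for Bra003356, from 1.93 to 2.48 for Bra014552 and from 1.89 to 3.25 for Bra007419. The lowest values came from limma on log2(RPKM + 1), whose pseudocount shrinks low genes. That of *AG* ranged from -0.24 to -0.13, short of the fold limit in every fit, and its adjusted p was above 0.001 in each as well. Its adjusted p varied more, from 0.00105 (edgeR, total counts) to 0.191 (edgeR, the 4 libraries without a block). The estimate for *AG* was thus slightly lower in *fsm* in every fit, and only its adjusted p depended on the fit. With all 6 libraries it was at most 0.0197, and with fewer libraries it ran from 0.0084 to 0.191. Both lines have libraries numbered 1 and 2, but no source ties same-numbered libraries together. In a fit of these 4 libraries with a replicate block, 4 of the 5 genes were called, and *AG* had a log2 fold change of -0.14 (adjusted p = 0.18, edgeR). The block gave 12216 calls over all genes, against 11003 without it in the same 4 libraries and 13069 in all 6. The deviations of same-numbered libraries correlated with r of -0.06 and 0.08. The number of all genes past a log2 fold change of 4, 1873, moved to 1156 with a prior count of 2, to 497 with limma on log2(RPKM + 1) and to 1177 with limma on log2(RPKM + 0.1). The differences between Bra007419 and the other *SHP* genes rest on 7 to 24 reads per ‘FT’ library and are the least certain. Of the 7 pistil genes, 5 were called with limma on log2(RPKM + 1) and in the 4 libraries without a block, and 6 were tested and called with the filter on low counts, while all 17 pollen genes were called in each of these fits.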

Other observations

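The genes whose level and line difference were most like those of each carpel MADS gene were found by the root mean square difference in log2(RPKM + 1) over the 6 libraries, among 29795 genes with reads in all of them. For *AG* they were Bra030317 (0.077) and Bra037844 (0.083), with mean levels of 157 and 145 RPKM in ‘FT’ and 125 and 124 RPKM in *fsm*. For *SHP2* they were Bra001451 (0.082) and Bra024182 (0.084). For the *SHP1* copies they were Bra025289 (0.075) and Bra004522 (0.114) beside Bra003356, Bra015401 (0.066) and Bra013706 (0.099) beside Bra014552, and Bra002915 (0.143) and Bra025527 (0.151) beside Bra007419. None of the 5 genes was among the nearest 2 of another. The sources used here give no names for these 10 genes.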
